A study of Mus musculus with 31 samples.

Results

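Haematopoietic stem cells that carry JAK2-V617F and lack Dnmt3a were compared after treatment with azacytidine or with vehicle, 4 libraries against 4 out of 31 libraries in the series. The 8 libraries were chosen by their sample titles (VFDM_AZA and VFDM_V) and by no measured value. The VFDM genotype is given as SclCre;FF1;Dnmt3Δ/Δ;GFP, so the controls carry the same Cre, JAK2-V617F transgene, GFP and Dnmt3a deletion as the treated mice. The VF genotype, used here only for comparison, has the same alleles with intact Dnmt3a. Marrow of either genotype had been transplanted into wild-type mice together with a 10-fold excess of wild-type marrow. From 4 weeks after transplantation the mice received vehicle, azacytidine (2 mg/kg daily, intraperitoneal), pegylated interferon alpha (25 ug/kg weekly, subcutaneous) or both for 8 weeks. LT-HSCs (Lin- Sca1+ cKit+ CD48- CD150+) were then sorted from bone marrow and their RNA was sequenced. The stated gate does not name GFP, so the share of wild-type competitor cells in each library is not known, and no source used here gives the ages of the mice. Nothing states that the libraries of a group come from separate mice, and p-values then cover only their spread, which may be technical.

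Azacytidine is a cytidine analogue that is built into RNA and DNA and traps DNA methyltransferases, so that methylation is lost as cells divide. Dnmt3a is a methyltransferase that sets new methylation marks and is often mutated in clonal blood disorders. Type I interferons bind the receptor chains Ifnar1 and Ifnar2. Their kinases activate transcription factors, Stat2 among them, which act with Irf9 and bind the interferon-stimulated response element (ISRE) in the promoters of antiviral genes. The same genes are also switched on when sensors such as Ddx58 (RIG-I) or Ifih1 (MDA5) detect double-stranded RNA.

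The main contrast had 189 genes higher and 16 lower with azacytidine, of 22172 rows tested. Calls rest on edgeR's quasi-likelihood test with a Benjamini-Hochberg adjusted p under 0.05, and 0.925% of rows were called (0.852% higher, 0.0722% lower). Of the 189 higher genes, 59 belong to 4 lists of interferon-linked genes, 13 to a list of erythroid genes and 117 to neither. The 4 lists do not cover every interferon-linked gene: Rnf213, Adar and Ly6a are among the 117. In 183 of the 189, every azacytidine library lay above every vehicle library, which held for 5.11% of all rows. The median log2 fold change of all rows was -0.04. Total counts ran from 17890277 to 32209318 in the azacytidine libraries and from 32932549 to 45344180 in the vehicle libraries, and azacytidine libraries 3 and 4 had reads in fewer rows (18843 and 19570) than the vehicle libraries (23753 to 26202). The library labelled VFDM IFN 3, used here in comparisons with interferon, has a genotype label in doubt. It had Dnmt3a at 162 CPM (CPM, counts scaled to library size with TMM factors) and the CreERT2 transgene at 113 CPM, against 102 to 111 CPM and 212 to 244 CPM in the other 3 interferon libraries and 162 to 297 CPM and 86.8 to 173 CPM in VF vehicle libraries.

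Promoters of 4 genes that rose are shown because they carry the letters of the ISRE, which a minority of the higher genes share. All 4 belong to the type I interferon-stimulated list. Each line gives the 150 bases before the RefSeq start (build GRCm38.p6), 5′ to 3′ on the gene's own strand, with matches to the ISRE letters (TTTC, then 2 bases of any kind, then TTTC) on either strand in capitals.
Isg15 (chr4:156200819-156200968, minus strand): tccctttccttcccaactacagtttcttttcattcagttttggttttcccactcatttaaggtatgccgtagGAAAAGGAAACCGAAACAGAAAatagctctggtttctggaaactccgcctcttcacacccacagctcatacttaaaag
Ifit1 (chr19:34640739-34640888, plus strand): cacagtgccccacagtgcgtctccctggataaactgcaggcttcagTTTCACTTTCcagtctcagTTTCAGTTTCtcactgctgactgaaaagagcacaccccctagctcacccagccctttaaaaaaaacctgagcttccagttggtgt
Oas3 (chr5:120777660-120777809, minus strand): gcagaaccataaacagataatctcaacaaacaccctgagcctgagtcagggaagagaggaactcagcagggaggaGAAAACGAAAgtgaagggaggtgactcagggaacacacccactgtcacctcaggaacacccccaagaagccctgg
Ddx60 (chr8:61927937-61928086, plus strand): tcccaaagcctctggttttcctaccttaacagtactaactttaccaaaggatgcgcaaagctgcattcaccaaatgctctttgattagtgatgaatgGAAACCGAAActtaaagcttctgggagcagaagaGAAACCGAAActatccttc
In Isg15, 3 overlapping matches begin 78, 72 and 66 bases before the start and merge into a single run of capitals. Ifit1 has 2 matches, Oas3 1 and Ddx60 2, the nearest of them 19 bases before the start. In RefSeq windows of 250 bases before to 50 after the start, 35 of the 137 higher genes with a window (25.5%) held this motif, against 455 of 11793 tested genes (3.86%) and 1131 of all 32851 promoter windows (3.44%). None of the 11 lower genes and none of the 18 erythroid genes with a window held it. In the type I interferon list 22 of 40 did (55%), and in the interferon-gamma-inducible GTPase list 9 of 11 did (81.8%). Among the higher genes, the motif was held by 18 of 34 in the type I list (52.9%) and 17 of 103 outside it (16.5%). The GATA letters AGATAA, on either strand, occurred in 6 of the 18 erythroid genes (33.3%), against 8.55% of tested genes and 11.2% of all promoter windows. They also occurred in 15.3% of the higher genes and 15% of the type I list. In the GTPase list 3 of 11 held them (27.3%), as did 2 of the 11 lower genes (18.2%). A match describes the letters in the window and was not tested as a binding site.

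Interferon-stimulated genes made up the largest listed group of rises. Of the 54 members of the type I interferon-stimulated list, 53 were tested, 45 were higher, none was lower and 8 did not pass. Their median log2 fold change was 1.50, against -0.04 over all rows, and in 51 of the 53 every azacytidine library lay above every vehicle library. The summed level of the list was 3065, 2802, 2970 and 2781 CPM in the 4 vehicle libraries and 6299, 7209, 6564 and 6512 CPM in the azacytidine libraries. The 4 treated libraries were close to each other and did not overlap with the controls. The count of members called stayed between 42 and 45 whichever of the 8 libraries was left out.

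**Figure D1:**
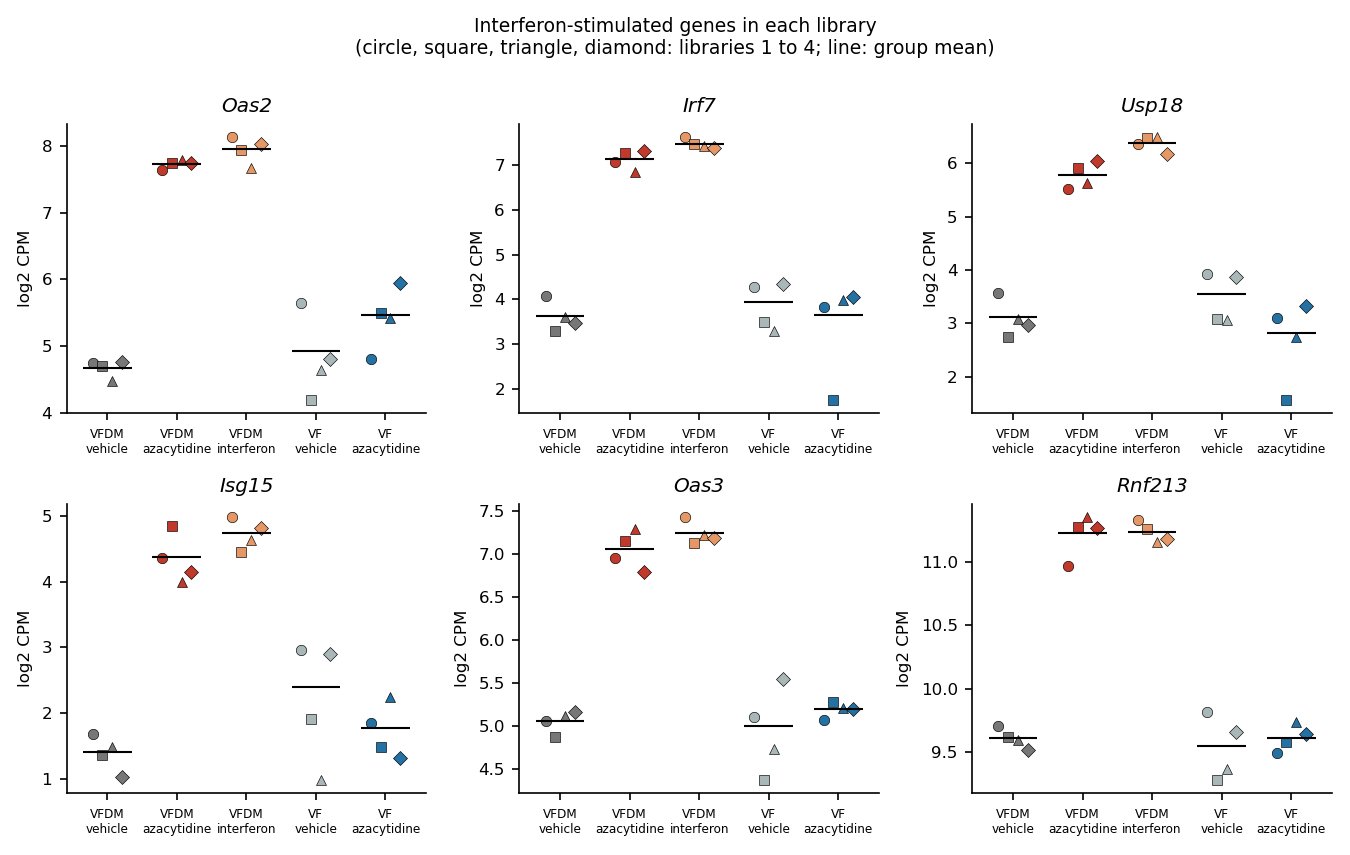
Levels of 6 interferon-stimulated genes in each library (log2 CPM, y axis) for 5 groups (x axis), with symbols for libraries 1 to 4 and a line at the group mean. In every panel the 4 VFDM azacytidine libraries lie above all VFDM vehicle libraries, for example 199 to 222 CPM against 22.2 to 27.2 CPM for Oas2. For Irf7 and Usp18 they also lie below all VFDM interferon libraries.

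Antiviral effectors were among the genes that rose, and all of those given here except Rnf213 are members of the list. Oas2, an oligoadenylate synthetase that activates the RNA-cutting enzyme RNase L (ENSMUSG00000032690, chr5:120730333-120749853, minus strand), stood at 26.7, 25.9, 22.2 and 27.2 CPM with vehicle. With azacytidine it stood at 199, 215, 222 and 214 CPM, an 8.32-fold rise (log2 3.06 ± 0.23 SE, adjusted p = 1.49e-10, higher in 4 of 4 libraries). Its relatives Oas3 and Oasl2 rose 4-fold and 3.93-fold. Rnf213, a large ubiquitin ligase that coats intracellular microbes, went from 734 to 836 CPM to 1999 to 2610 CPM (log2 1.61 ± 0.13, adjusted p = 2.55e-10). Ifi44 rose from 31.5, 34.5, 34.4 and 27.3 CPM to 162, 188, 128 and 164 CPM (log2 2.33 ± 0.19, adjusted p = 7.04e-10). Ddx60, a helicase that aids RNA sensing, rose 2.78-fold, and Rtp4, a chaperone of surface receptors, rose 4.34-fold. Further effectors were selected for their names after their values were seen. The ubiquitin-like modifier Isg15 rose from 2.04 to 3.22 CPM to 15.9 to 28.7 CPM (log2 2.96 ± 0.38, adjusted p = 7.48e-06). The GTPase Mx1 rose from 2.54 to 3.98 CPM to 35.7 to 42.6 CPM, and the RNA-binding proteins Ifit1 and Ifit3 rose from 11.7 to 16.4 CPM to 70.2 to 111 CPM and from 1.63 to 2.86 CPM to 29.9 to 42.6 CPM. In each of these genes the groups did not overlap.

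Among the regulators, Irf7, a transcription factor of the second wave of interferon induction (ENSMUSG00000025498, chr7:141262706-141266481, minus strand), had the largest rise of the 4 named here. It stood at 16.8, 9.85, 12.1 and 11 CPM with vehicle and at 135, 154, 115 and 159 CPM with azacytidine, an 11.3-fold rise (log2 3.50 ± 0.32, adjusted p = 2.23e-08). Usp18, which removes Isg15 from proteins and dampens receptor signalling, rose from 6.69 to 11.9 CPM to 45.8 to 65.8 CPM (log2 2.67 ± 0.26, adjusted p = 2.23e-08). Stat2 and Irf9, which bind the ISRE, rose 2.49-fold and 2.01-fold. Of the 21 tested genes for interferon receptors and their kinases 4 were higher and none lower, Usp18, Stat2 and Irf9 among them. The receptor chains were not called: Ifnar1 stood at 66.7 to 77.9 CPM with vehicle and 37.2 to 63.6 CPM with azacytidine (log2 -0.50 ± 0.16, adjusted p = 0.193), and Ifnar2 at 45.1 to 58 CPM and 40.6 to 55.8 CPM (adjusted p = 0.936). Transcripts of the interferons themselves had few or no reads. Of 21 interferon ligand rows, 19 had no read in any of the 8 libraries. Ifnk and Ifnz had 3 reads in all with azacytidine and 59 with vehicle. The highest level of a ligand row in any library was 0.105 CPM with azacytidine and 1.41 CPM with vehicle. Where a row has 0 reads, 3 counts of a library's total correspond to 0.0662 to 0.168 CPM.

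Fewer genes of nucleic acid sensing passed the test. In the RNA and DNA sensing list 7 of 29 tested genes were higher, none was lower and 22 did not pass, with 12 negative estimates and a median log2 of 0.15. All 7 are also in the type I list: Irf7, Zbp1, Dhx58, Ddx58, Trim25, Eif2ak2 and Ifih1. Zbp1, a sensor of left-handed nucleic acid that can start necroptosis, rose from 16.9, 9.73, 15.7 and 11.6 CPM to 58.4, 66.8, 71.7 and 39.1 CPM (log2 2.13 ± 0.21, adjusted p = 4.25e-08). Ddx58 rose 2.16-fold from 88.6 to 105 CPM, its relative Dhx58 2.96-fold, and Ifih1 1.82-fold. Adar, which edits double-stranded RNA so that sensors ignore it, rose from 129 to 144 CPM to 253 to 317 CPM (log2 1.09 ± 0.11, adjusted p = 1.34e-07). Adar was the only called member of 31 tested genes for retroelement silencing. Cmpk2, a mitochondrial nucleotide kinase, was the only called member of 29 tested genes for azacytidine uptake, activation and clearance, at 18 to 19.4 CPM with vehicle and 50.7 to 100 CPM with azacytidine (adjusted p = 4.38e-05), and it is a member of the type I list as well. Uck2 and Dck, which phosphorylate cytidine and deoxycytidine analogues, were not called (adjusted p = 0.836 and 0.758).

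GTPases best known as targets of interferon gamma were called in 10 of 19 members, all higher, with a median log2 of 0.91. Irgm1, which guards membranes during autophagy, rose from 63.3, 52, 55.8 and 50.7 CPM to 117, 132, 139 and 106 CPM (log2 1.16 ± 0.15, adjusted p = 1.2e-05). Gvin1 went from 393 to 485 CPM to 754 to 1010 CPM, and Iigp1 and Tgtp1 rose 2.36-fold and 1.97-fold. Antigen presentation by MHC class I had 4 of 23 members higher. The peptide transporter subunit Tap1 stood at 124 to 128 CPM with vehicle and 198 to 225 CPM with azacytidine (log2 0.76 ± 0.12, adjusted p = 0.000318), and the class I molecules H2-T22 and H2-Q7 rose 1.72-fold and 1.69-fold. The class I regulator Nlrc5 rose 1.5-fold (adjusted p = 0.0133), with an adjusted p of 0.0772 and 0.0623 once vehicle library 2 or 4 was left out. No member of the MHC class II list was called among 14 tested. The cell-surface tether Bst2 rose 3.06-fold. Ly6a, which encodes the sorting marker Sca1 and is itself interferon-inducible, rose from 15.3, 12.1, 13.3 and 12.8 CPM to 53.7, 53.1, 44.4 and 38.1 CPM (log2 1.82 ± 0.27, adjusted p = 4.98e-05). Sca1 protein set the gate, and its part in these results was not tested.

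The same genotype was also treated with interferon, and the 2 treatments were set against each other in a comparison added after the data were seen. It called no gene (0% of 22172 rows; 1053 rows at an unadjusted p under 0.05) with edgeR's quasi-likelihood test. DESeq2 called 80, or 0.274% (6 higher with azacytidine, 74 lower), and limma voom called 1, or 0.00451%. In the type I list none of the 53 members was called, and the median log2 difference was -0.21, with 44 of 53 estimates lower with azacytidine. The summed level of the list was 8243, 6964, 7009 and 6995 CPM in the interferon libraries. Azacytidine library 2 (7209 CPM) lay within that range. Azacytidine libraries 1, 3 and 4 (6299, 6564 and 6512 CPM) lay below it. In 24 of the 53 members the azacytidine mean reached or passed the lowest interferon library. Oas2 stood at 280, 246, 203 and 260 CPM with interferon, Irf7 at 198, 177, 173 and 168 CPM, and Usp18 at 82.8, 88.8, 90 and 72.4 CPM. Usp18 and Irf7 were lower in all 4 azacytidine libraries than in every interferon library, with log2 differences of -0.59 ± 0.24 (adjusted p = 0.926) and -0.35 ± 0.29 (adjusted p = 1). Rnf213 at 2278 to 2573 CPM with interferon overlapped with azacytidine. A p that misses the threshold does not show that the 2 treatments act alike. No transcript in the table reports exposure to azacytidine directly, so the treatment label of these 4 libraries was not tested. Without the library labelled VFDM IFN 3, whose genotype label is in doubt, the comparison again called no gene (964 rows at an unadjusted p under 0.05), and the interferon range of Oas2 was 246 to 280 CPM.

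The response of the type I list differed between genotypes. The difference of the 2 responses, VFDM minus VF, was higher for 125 genes and lower for 4 (0.564% and 0.018% of rows, 0.582% in all). It was higher for 29 of the 53 members of the type I list and lower for none. In VF cells the list's median log2 response to azacytidine was 0.03, with 4 members higher (0.293% of all rows were higher and 0.902% lower in that comparison). Irf7 stood at 19.4, 11.3, 9.8 and 20.4 CPM in VF vehicle libraries and at 14.1, 3.34, 15.9 and 16.6 CPM with azacytidine, and its difference of responses was 3.77 ± 0.43 on the log2 scale (adjusted p = 3.89e-06). Usp18 (3.38 ± 0.35, adjusted p = 1.11e-06), Ifi44 (2.30 ± 0.26) and Oasl2 (2.14 ± 0.25) passed the same test. Oas2 stood at 27.8 to 61.5 CPM in VF azacytidine libraries and 18.2 to 50.2 CPM in VF vehicle libraries, with a difference of responses of 2.50 ± 0.30. None of the 19 interferon-gamma-inducible GTPases passed the test of the difference, and their median response in VF cells was 0.38. Their median difference was 0.47, with 15 positive and 4 negative estimates. The count of type I members with a higher difference was 26 to 30 whichever library was left out, 27 without the libraries under 20000 detected rows and 25 without VF vehicle libraries 1 and 4, in which a smaller share of counts was mitochondrial. The libraries under 20000 detected rows include VFDM azacytidine libraries 3 and 4 and VF azacytidine libraries 2 and 3. That setting therefore also shrinks the treated groups, to libraries 1 and 2 in VFDM and 1 and 4 in VF. Without the VF vehicle library 3 the count over all genes rose to 269.

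**Figure D2:**
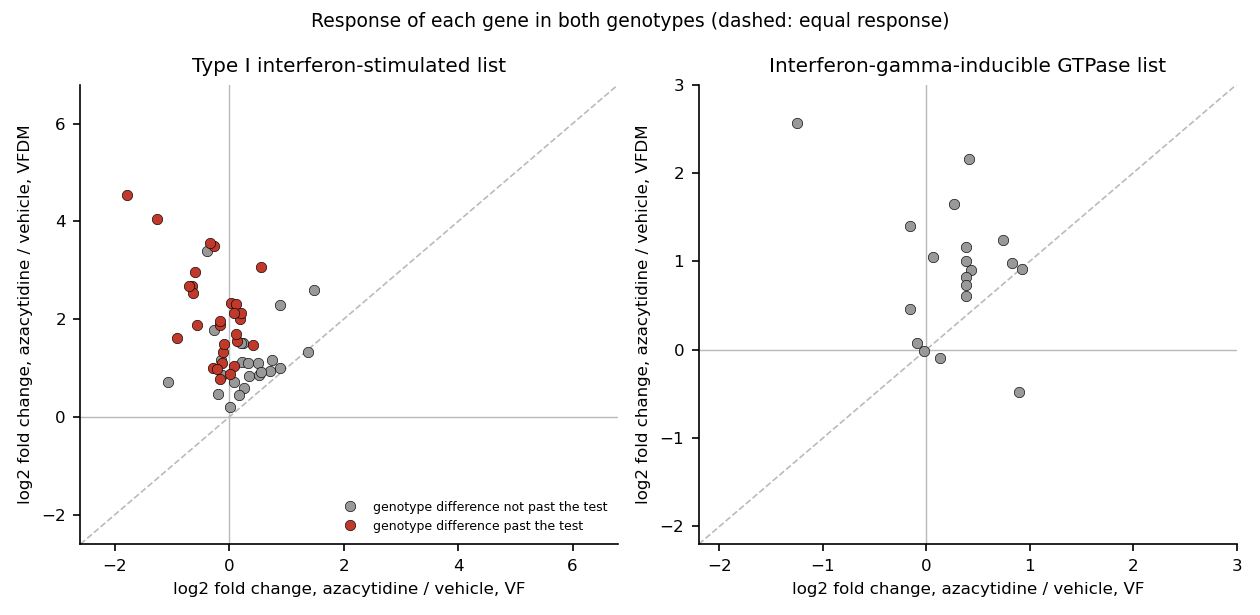
Log2 fold change of azacytidine against vehicle in VF cells (x axis) and in VFDM cells (y axis) for each tested member of 2 lists, red where the difference between genotypes passed the test. The 53 type I genes lie above 0 on the y axis and spread around 0 on the x axis (median 0.03), while no GTPase is red.

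Of the 125 genes, 63 were also among the 189 higher genes of the VFDM comparison, and 62 were not called there. For 51 of the 125, the VF comparison itself called the gene lower with azacytidine. The VF vehicle libraries stood apart in their share of counts from small and ribosomal RNA rows, at 19.3% to 38.3%, against 12.5% to 15.4% in VF azacytidine, 14.3% to 17.2% in VFDM vehicle and 12.8% to 15.4% in VFDM azacytidine libraries. In the VF comparison 15 of 65 ribosomal protein genes were also lower. Without the small and ribosomal RNA rows the genotype difference was called for 99 genes in place of 129, with 29 type I and 7 erythroid members as before. The 4 genes with a lower difference were Ttc3, Angpt1, Phf20l1 and Zmynd19, and none of them was called in VFDM cells. Angpt1, a ligand made by stem cells for the receptor Tie2, stood at 613 to 704 CPM and 467 to 635 CPM in VFDM vehicle and azacytidine libraries (adjusted p = 0.723), while in VF cells it was at 294 to 571 CPM and 638 to 842 CPM (difference -0.92 ± 0.20, adjusted p = 0.0185, and 0.0786 without VF azacytidine library 2). No lower call was left without VF vehicle libraries 1 and 4.

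Erythroid genes were the other group that rose. Of 25 tested members of the erythroid list 13 were higher and none lower, with a median log2 of 2.93. The summed level of the list was 615, 594, 585 and 590 CPM with vehicle and 620, 913, 1758 and 1123 CPM with azacytidine. All treated libraries lay above the controls, but library 1 by little and library 3 by far. Gata1, the transcription factor that drives red cell and platelet formation, rose from 8.34, 7.63, 6.99 and 9.75 CPM to 22.3, 36.7, 63.7 and 28.2 CPM (log2 2.20 ± 0.34, adjusted p = 0.000122). Sptb, the spectrin beta chain of the red cell skeleton, rose from 2.9, 1.6, 1.27 and 3.6 CPM to 17.4, 33.7, 33.8 and 49.8 CPM (log2 3.84 ± 0.57, adjusted p = 0.000128). The transferrin receptor Tfrc rose from 36.9 to 44.8 CPM to 62.2, 108, 179 and 105 CPM. Tspo2, an erythroid membrane protein, had 9 reads in the 4 vehicle libraries and 3.41, 13.7, 20.4 and 27.7 CPM with azacytidine (adjusted p = 0.00307). Ermap, a blood group antigen, went from 0.296 to 1.76 CPM to 8.13, 41.7, 155 and 58.2 CPM (adjusted p = 0.00653). Carbonic anhydrase 1 (Car1) went from at most 2.12 CPM to 4.97, 29.1, 65.5 and 64.4 CPM. In every one of these genes library 1 was the lowest of the treated libraries, and the groups did not overlap.

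**Figure D3:**
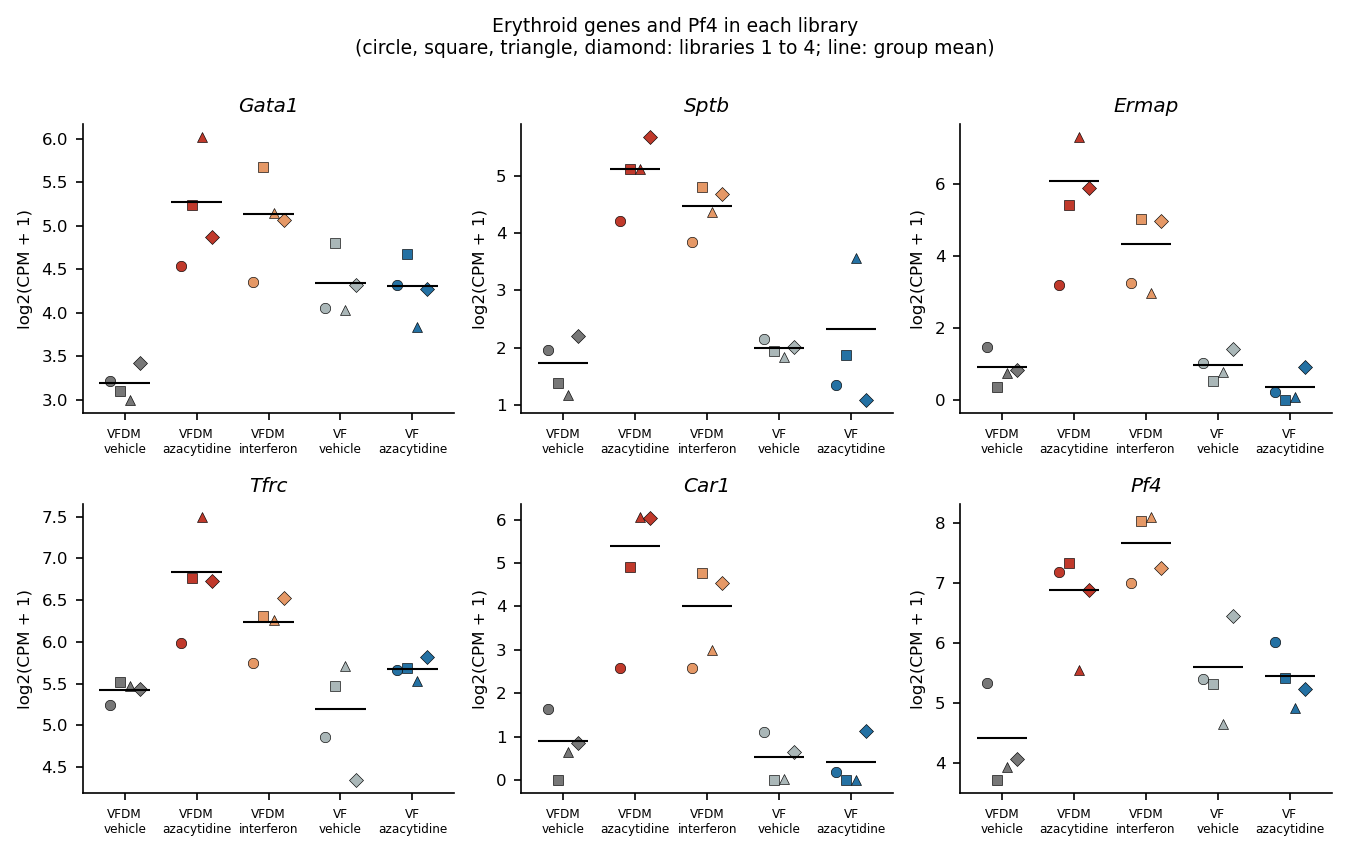
Levels of 5 erythroid genes and of the platelet gene Pf4 in each library (log2(CPM + 1), y axis) for 5 groups (x axis), with symbols for libraries 1 to 4 and a line at the group mean. The VFDM azacytidine libraries spread widely, with Car1 at 4.97 CPM in library 1 and 65.5 CPM in library 3, and all lie above the VFDM vehicle libraries.

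The other 12 members of the erythroid list did not pass the test, globins and regulators among them. Adult beta and alpha globin were not called: Hbb-bs stood at 42.5, 9.97, 1.56 and 1.39 CPM with vehicle and 6.37, 1.47, 12.5 and 10.1 CPM with azacytidine, and Hba-a1 at 2.09 to 26.5 CPM and 0.368 to 16.6 CPM (adjusted p = 0.931 and 0.999). The regulator Klf1 stood at 1.63 to 4.76 CPM and at 6.47, 24.1, 37.9 and 27.1 CPM without passing (adjusted p = 0.104), as did the erythropoietin receptor Epor at 1.57 to 3.98 CPM and 7.34 to 16.2 CPM (adjusted p = 0.294). In both the groups did not overlap, and both calls depended on the setting. Klf1 passed in DESeq2 (adjusted p = 0.0114), in limma voom (0.0334), in a fit of only the groups compared (0.0106) and without the libraries under 20000 detected rows (0.0474). Epor passed in the last 3 of these (adjusted p = 0.0264, 0.0234 and 0.00886). In bulk RNA, more cells of a type and more RNA of that type per cell cannot be told apart. The interferon libraries of the same genotype had summed erythroid levels of 655 to 775 CPM, with Gata1 at 19.4 to 50.2 CPM and Sptb at 13.4 to 26.9 CPM. In VF cells Gata1 stood at 15.4 to 26.8 CPM with vehicle and 13.3 to 24.6 CPM with azacytidine, and 7 of the 25 genes had a higher difference of responses, Gata1 (2.24 ± 0.47, adjusted p = 0.0109) and Sptb (3.39 ± 0.76, adjusted p = 0.027) among them. That count was 1 without VFDM azacytidine library 3, where Gata1 had an adjusted p of 0.0543 and Sptb of 0.0594. Single libraries moved the erythroid count. It was 8 without vehicle library 1, 6 without 2, 7 without 3 and 6 without 4, and 7 without azacytidine library 3 or 4. It was 9 without the 8 libraries under 20000 detected rows, which include VFDM azacytidine libraries 3 and 4. Car1 (adjusted p = 0.0282) lost its call without vehicle library 2, 3 or 4 (adjusted p = 0.122, 0.127 and 0.105), without azacytidine library 3 or 4 (0.0709 and 0.0668), with the replicate block (0.0775) and without the libraries under 20000 detected rows (0.13). Tfrc lost its call in the last of these settings (adjusted p = 0.113).

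A few genes beyond these lists rose, chosen here after their values were seen. Scin, a calcium-dependent actin-severing protein, had 1 read in the 4 vehicle libraries together and 2.93, 28.4, 35.9 and 29.1 CPM with azacytidine (2579 reads, adjusted p = 5.93e-05), and at most 0.079 CPM in VF azacytidine libraries. Slc14a1, a urea transporter, rose from 45.6, 22.6, 34.8 and 34.8 CPM to 96.3, 135, 109 and 133 CPM (log2 1.78 ± 0.27, adjusted p = 8.93e-05). Runx3, a transcription factor of blood lineages, rose from 19.5 to 30.4 CPM to 54.2, 50.9, 60.4 and 113 CPM (adjusted p = 0.000152), with VF vehicle libraries at 90.4 to 103 CPM. The matrix protein Emilin2 rose from 4.39 to 6.15 CPM to 7.7, 37.6, 112 and 58 CPM (adjusted p = 0.00137), and VF vehicle libraries stood at 28.4 to 68.5 CPM. Both lost their call without the libraries under 20000 detected rows, azacytidine libraries 3 and 4 among them (adjusted p = 0.0615 and 0.159). Plac8, a lysosome-linked gene of early progenitors, was named by the list rule. It rose from 12.2 to 30.8 CPM with vehicle to 60.5 to 133 CPM with azacytidine (adjusted p = 2.98e-05). As for Runx3 and Emilin2, VF vehicle libraries lay above the VFDM vehicle libraries, at 51.3 to 110 CPM.

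Stem and progenitor genes gave few calls. In the LT-HSC list 2 of 54 members were higher, Ly6a and the TGF-beta co-receptor Tgfbr3 (86.9 to 137 CPM and 208 to 302 CPM, adjusted p = 0.000527), none was lower, and the median log2 was -0.25. Estimates were negative for 36 members and positive for 18. In 14 members every azacytidine library lay below every vehicle library, which held for 7.94% of all rows. In 4 members every azacytidine library lay above, against 5.11% of all rows. Hlf, a transcription factor of stem cell quiescence, stood at 451, 506, 428 and 415 CPM with vehicle and at 326, 290, 133 and 270 CPM with azacytidine. The groups did not overlap, and the adjusted p was 0.055. Hlf passed without azacytidine library 1 (adjusted p = 0.0284), with the replicate block (0.0374), with protein-coding rows only (0.0454), with DESeq2 (0.0303) and with limma voom (0.00622). The sorting markers Kit (684 to 805 CPM and 593 to 674 CPM), Slamf1, which encodes CD150 (59.3 to 93.3 CPM and 83.8 to 103 CPM), and Cd48 (4.53 to 7.6 CPM and 4.97 to 11 CPM) matched the gate in both groups and were not called. Of 35 tested progenitor genes 2 were higher (Plac8 and Pf4) and 2 lower (Cd34 and Csf3r), with a median log2 of -0.48. Pf4, a platelet chemokine, rose from 39.5, 12.1, 14.3 and 15.7 CPM to 145, 161, 46 and 117 CPM (adjusted p = 0.0189). It was the only called member of 26 megakaryocyte and platelet genes, and its adjusted p was 0.101, 0.0845 and 0.0766 without vehicle library 2, 3 or 4. The interferon libraries had Pf4 at 127 to 273 CPM (127 to 262 CPM without the library labelled VFDM IFN 3).

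The falls were smaller in number and rested on thinner margins. All 16 lower genes had no overlap between groups, which held in this direction for 7.94% of all rows. The sialomucin Cd34, a marker of progenitors (ENSMUSG00000016494, chr1:194938819-194961279, plus strand), fell from 145, 242, 141 and 129 CPM to 61.4, 66.7, 28.8 and 55.7 CPM (log2 -1.63 ± 0.38, adjusted p = 0.0299). Csf3r, the receptor of the neutrophil growth factor G-CSF, fell from 91.2, 105, 89.4 and 76.6 CPM to 45.1, 37, 18.6 and 32.2 CPM (log2 -1.45 ± 0.35, adjusted p = 0.0387). The progenitor cytokine receptor Flt3 stood at 13.2 to 49.4 CPM and 6.79 to 12.1 CPM without passing (adjusted p = 0.145, or 0.0454 with only the groups compared and 0.0474 with DESeq2). Mlph, a linker of organelles to myosin, fell from 17.1 to 23.1 CPM to 4.5 to 6.66 CPM (log2 -1.74 ± 0.39, adjusted p = 0.0154). Sesn3, a stress-responsive brake on mTORC1, fell from 116, 121, 130 and 99.5 CPM to 80.3, 80.2, 53.7 and 59.4 CPM (log2 -0.77 ± 0.17, adjusted p = 0.0151). Ltbp3, which stores latent TGF-beta in the matrix, fell from 97.1 to 168 CPM to 65.8 to 91.8 CPM (adjusted p = 0.0288), while Tgfb1 rose from 155 to 179 CPM to 229 to 363 CPM (adjusted p = 0.00751, or 0.0691 without azacytidine library 4). The other 7 named falls were Zfp608, Foxred2, Rab11fip3, Fam171a1, Ramp1, Ctla2a and Rcsd1, with adjusted p from 0.0183 to 0.0482 and log2 fold changes from -0.82 to -1.22.

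**Figure D4:**
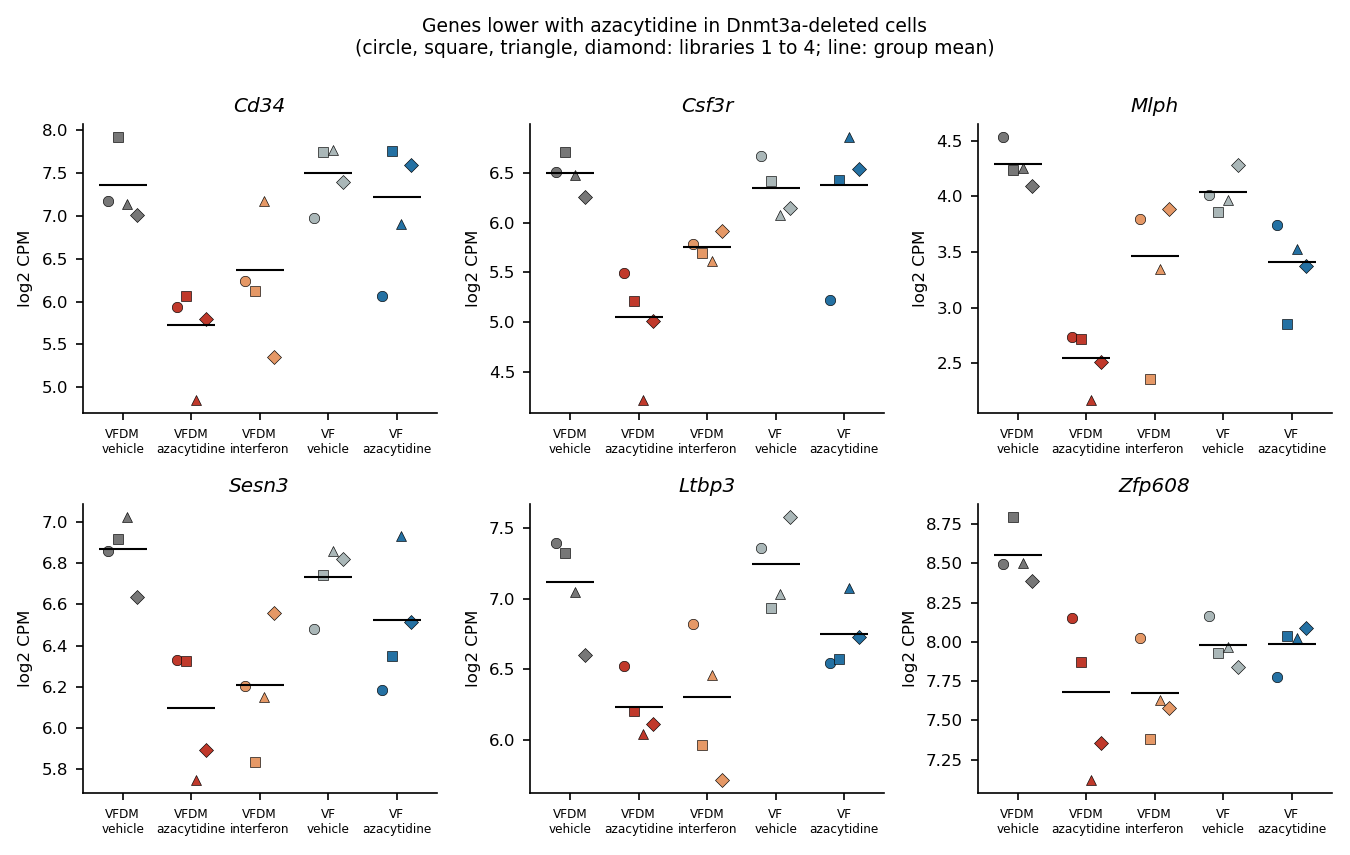
Levels of 6 genes that were lower with azacytidine in VFDM cells, in each library (log2 CPM, y axis), for 5 groups (x axis), with symbols for libraries 1 to 4 and a line at the group mean. In each panel all VFDM azacytidine libraries lie below all VFDM vehicle libraries, and library 3 (triangle) is the lowest of the azacytidine libraries.

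Azacytidine library 3 had the lowest azacytidine level of 11 of the 12 named genes. The count of lower genes was 6, 1, 3 and 8 without vehicle library 1, 2, 3 or 4, 38 and 12 without azacytidine library 1 or 2, 1 without library 3 and 0 without library 4. Cd34 lost its call without vehicle library 2 or 3 (adjusted p = 0.159 and 0.0526) or azacytidine library 3 or 4 (0.159 and 0.0892). Csf3r lost it without any single library but azacytidine library 1 (0.25 at most). Mlph lost it without vehicle library 1 or 2 (0.0658 and 0.0502) or azacytidine library 3 or 4 (0.0857 and 0.0618), and Sesn3 without vehicle library 2 or 3 (0.0772 and 0.0963) or azacytidine library 3 or 4 (0.14 and 0.102). Ltbp3 lost it without any single library but vehicle library 4 and azacytidine library 1 (0.153 at most). Of the 12 genes, none passed the test of the genotype difference. The interferon libraries stood at 40.8 to 145 CPM for Cd34 (40.8 to 75.4 CPM without the library labelled VFDM IFN 3), 49.1 to 60.6 CPM for Csf3r, 5.13 to 14.8 CPM for Mlph and 57.1 to 94.1 CPM for Sesn3.

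Genes of DNA methylation and genes listed as silenced by methylation gave no call in the fit over all 31 libraries. Dnmt3a itself (ENSMUSG00000020661, chr12:3806007-3914443, plus strand) stood at 119, 120, 119 and 109 CPM with vehicle and at 107, 105, 95.1 and 83.4 CPM with azacytidine (adjusted p = 0.827), below the 162 to 297 CPM of VF vehicle libraries. The sources used here do not say which part of the gene is deleted, and where in the gene these reads lie, or from which cells, was not tested. The maintenance methyltransferase Dnmt1, the main target of azacytidine, stood at 442 to 604 CPM and 552 to 680 CPM (adjusted p = 0.684). Its recruiter Uhrf1 and the new-mark enzyme Dnmt3b were not called (adjusted p = 0.472 and 0.231). Uhrf1 passed with only the groups compared (adjusted p = 0.0446, log2 0.42) and Dnmt3b with limma voom (adjusted p = 0.0416, log2 -0.59). Mbd2, a reader of methylated DNA, stood at 65.8, 68, 65.4 and 62.7 CPM with vehicle and at 84.1, 86.9, 109 and 88.4 CPM with azacytidine without overlap (adjusted p = 0.108). It passed with only the groups compared (adjusted p = 0.0296), with DESeq2 (0.0335) and with limma voom (0.0122). No call was made among 16 methylation writers, 18 erasers and readers (Tet1, an eraser, adjusted p = 0.473), 45 imprinted genes or 14 tested germline genes. Of the 37 genes listed as germline genes silenced by methylation, 12 had no read in any of the 8 libraries and 25 stayed under 1 CPM in all 8. The rest reached 1 CPM in at least 1 library, so not every member was silent in these cells. The list summed to 44.7 to 110 CPM with vehicle and 39.9 to 134 CPM with azacytidine. The germline helicase Ddx4 was at 4.18 to 11.5 CPM with vehicle and 2.35 to 3.04 CPM with azacytidine (adjusted p = 0.454). The human JAK2-V617F transgene rows for exons 3 to 12 stood at 70.2 to 88.4 CPM and 99 to 125 CPM (adjusted p = 0.599), mouse Jak2 at 131 to 140 CPM and 144 to 183 CPM (adjusted p = 0.381), and GFP at 355 to 412 CPM and 301 to 441 CPM.

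Cell cycle genes had mostly positive estimates and few calls. In the replication list 47 of 52 estimates were positive (median log2 0.32) and none was called. In the mitosis list 42 of 45 were positive (median 0.45) and 1 was called, the spindle protein Ckap2l at 36.5 to 47.5 CPM and 57 to 103 CPM (adjusted p = 0.0161, or 0.0649, 0.0694 and 0.0971 without vehicle library 2 or 3 or azacytidine library 4). Cdk6, the kinase that lets stem cells leave quiescence, rose from 455, 384, 377 and 381 CPM to 566, 797, 1088 and 1105 CPM (log2 1.15 ± 0.23, adjusted p = 0.00374, or 0.277 without the libraries under 20000 detected rows). The interferon libraries had Cdk6 at 697 to 1253 CPM. E2f8, a repressor active in S phase and chosen after its values were seen, rose 2.78-fold (adjusted p = 0.000702). The repair helicase Blm rose 1.69-fold (adjusted p = 0.00905, or 0.0673 without vehicle library 2), the only call among 45 DNA repair genes. The amino acid carrier Slc7a5 rose 2.01-fold (adjusted p = 0.00214, or 0.0883 without the libraries under 20000 detected rows). All 43 ribosome biogenesis genes had positive estimates (median 0.26), and 1 was called, the helicase Ddx21 (adjusted p = 0.0474, or 0.0628 to 0.332 without any 1 of 6 of the 8 libraries). None of 37 tested p53 targets was called; Cdkn1a stood at 0.61 to 0.983 CPM and 1.37 to 3.22 CPM (adjusted p = 0.732). None of 65 ribosomal protein genes was called (median -0.02).

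**Figure D5:**
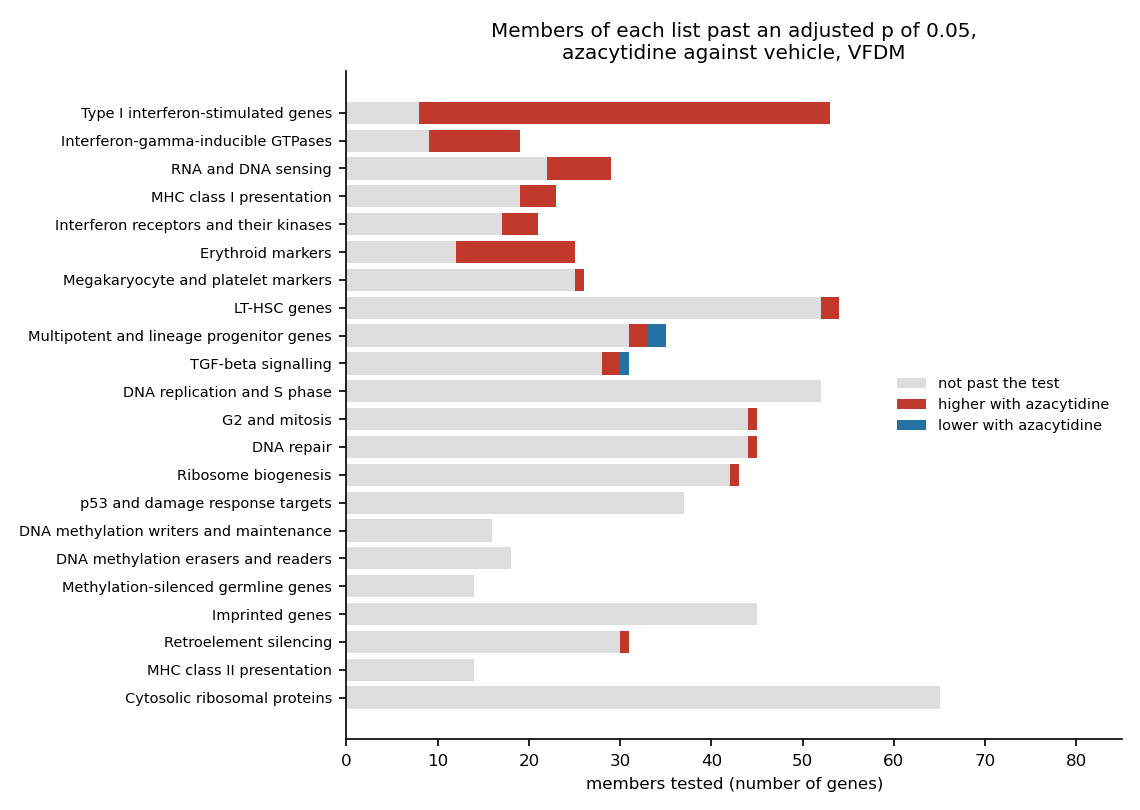
Number of tested members (x axis) of 22 gene lists (y axis) that were higher (red), lower (blue) or not past the test (grey) with azacytidine in VFDM cells. Red fills 45 of 53 places in the type I interferon list and 13 of 25 in the erythroid list, and at most 10 in each of the others.

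Markers of other mature cells differed in level from list to list. The summed level of the B cell list was 5.24 to 7.8 CPM with vehicle and 1.78 to 9.65 CPM with azacytidine, that of the T and NK cell list 8.53 to 12.1 CPM and 6.84 to 13.9 CPM, and that of the eosinophil list at most 4.12 CPM. Monocyte and macrophage markers summed to 91.7 to 107 CPM and 72.3 to 122 CPM. Neutrophil markers summed to 267 to 313 CPM and 143 to 222 CPM, with 12 of 21 members under 1 CPM in all 8 libraries, and Csf3r was the only called member. Megakaryocyte and platelet markers summed to 1445 to 1929 CPM and 1861 to 2189 CPM. Mast cell and basophil markers summed to 1079 to 1224 CPM with vehicle and 971 to 1165 CPM with azacytidine, and none of the 10 tested was called.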

How the data were processed

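RNA of sorted LT-HSCs was sequenced in 31 libraries, 4 per group and 3 for VFDM COMBO. The authors deposited raw counts per gene (55492 rows, mm10). Per the submitters' processing notes the tools were STAR 2.7.10a and featureCounts, with FastQC 0.11.5 for quality and R 4.3.0. The library kit is stranded, per the labels' protocols. No source used here gives the annotation, whether counting used strand, or how reads with several positions were treated. Near-identical copies (Oas1, Ifit, Gbp, Tgtp and globin genes), overlapping genes and antisense genes are therefore uncertain. Names and gene positions came from GENCODE vM21, promoters from RefSeq.

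Counts were fitted in R 4.3.3 with edgeR 4.0.16, with TMM factors, filterByExpr (minimum count 10, minimum total 15), robust quasi-likelihood dispersions and 1 mean per group over all 31 libraries. Benjamini-Hochberg adjustment ran over 22172 rows and tests were two-sided. An SE is the log2 fold change divided by the square root of the F statistic. CPM are per TMM-scaled library, and a floor of 3 counts covers counting error only. DESeq2, limma voom with quality weights and the settings in the closing section were alternatives. The procedure was tested on simulated data. Replicates were compared, and no 2 agreed within sampling noise.

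Named genes were up to 12 per direction by p with a mean log2 CPM of at least 2 and no predicted symbol, up to 4 per list by p, up to 5 per direction for the genotype difference, and Dnmt3a, Dnmt1, Jak2 and the transgenes. The comparison, its 45 lists and the named genes were chosen with earlier results of these data known. A few genes that the rule names are not reported here.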

Additional observations from a re-analysis of the deposited data

Results flagged for a closer look

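In 220 groups of 4 libraries (VFDM vehicle and azacytidine, for each gene examined by name), 17 had 1 library far from the other 3, or 7.73%, where chance gives about 1 in 20. For azacytidine library 2 the value standing apart was Nlrc5 (285 CPM). For azacytidine library 3 the values standing apart were Flt3 (12.1 CPM), Cks2 (28.8 CPM) and Uck2 (141 CPM). For azacytidine library 4 the value standing apart was Runx3 (113 CPM). For vehicle library 1 the values standing apart were Oasl2 (89.5 CPM), Pf4 (39.5 CPM) and Cdk6 (455 CPM). For vehicle library 2 the values standing apart were Cd34 (242 CPM), Fam171a1 (57.5 CPM) and Ddx4 (11.5 CPM). For vehicle library 3 the values standing apart were Ifit1 (16.4 CPM) and Scin (0.022 CPM). For vehicle library 4 the values standing apart were Irf9 (58 CPM), Klf1 (4.76 CPM), Cks2 (12.1 CPM) and Dnmt3a (109 CPM). 

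The response to azacytidine differed between the genotypes in 37 of the genes examined by name, by the interaction term of edgeR's quasi-likelihood test with an adjusted p under 0.05. The differences below are VFDM minus VF on the log2 scale. Among interferon-linked genes they were Oas2 2.50, Rnf213 1.54, Ifi44 2.30, Oasl2 2.14, Usp18 3.38, Irf7 3.77, Zbp1 2.05, Rtp4 1.91, Oas3 1.81, Adar 1.01, Ddx60 1.07, Stat2 1.42, Irf9 1.29, Dhx58 1.44, Ddx58 1.24, Isg15 3.56, Mx1 3.89, Ifit1 3.32, Ifit3 5.31, Cmpk2 2.46, Bst2 2.52, Tap1 0.95, H2-Q7 1.04 and Ly6a 1.84. Among erythroid genes they were Gata1 2.24, Sptb 3.39, Tspo2 13.61 and Ermap 7.84. Other genes with a positive difference were Plac8 2.75, Slc7a5 1.15, Runx3 1.43, Emilin2 3.33 and Scin 13.40. The values of Tspo2, Scin and Ermap rest on groups at or near 0 reads and depend on the fit's prior count. Scin's difference lost its call without VF vehicle library 4 (adjusted p = 0.179) and without VF vehicle libraries 1 and 4 (0.228). It was also lost without the libraries under 20000 detected rows (0.104) and with limma voom (0.403). Tspo2 and Ermap lost theirs in some settings too, limma voom among them (0.181 and 0.481). Negative differences were found for Ttc3 -0.81, Angpt1 -0.92, Phf20l1 -0.84 and Zmynd19 -1.05.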

How the results depend on the processing

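The 205 calls of azacytidine against vehicle in VFDM cells became 478 with only the groups compared in the fit, 480 with DESeq2 and 780 with limma voom, and 112 to 285 without 1 library. Those 3 fits also moved the split of calls, to 322 higher and 156 lower, 342 and 138, and 434 and 346, against 189 and 16. The 13 erythroid calls became 8 with the replicate block and 6 to 14 without 1 library. The 129 genotype differences became 68 with only the groups compared, 61 without libraries under 20000 detected rows, 70 without VF vehicle libraries 1 and 4, 81 with protein-coding rows only, 467 with DESeq2, and 86 to 269 without 1 library. Their 7 erythroid members became 4 with the replicate block, 3 without libraries under 20000 detected rows, 3 without VF vehicle libraries 1 and 4, 11 with DESeq2, 1 with limma voom, and 1 to 8 without 1 library. Azacytidine against interferon called 1 gene with no filter on low counts, 80 with DESeq2, 1 with limma voom, and 0 to 1 without 1 library. Counts of the type I interferon list stayed within 1.5 times of 45 and 29 in every setting. The settings with protein-coding rows only and without VF vehicle libraries 1 and 4 were chosen after seeing the data, as was the comparison with interferon. The cause of these shifts was not tested. Of 63 named genes called in VFDM cells, 38 kept their call in every setting, 19 lost it without 1 library and none changed direction. Of 37 named genotype differences, 17 kept theirs in every setting and 12 lost it without 1 library.

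Correlations gave no sign that library numbers pair the samples, and whether same-numbered libraries share a batch was not tested. Same-numbered VFDM azacytidine and vehicle libraries had correlations of -0.01 to 0.04 in their deviations from group means, and 1 of 4 correlated best with its own number. With the replicate block the calls were 172 in VFDM cells, 106 for the genotype difference and 0 against interferon. Depth limits the genes near 0 reads, and azacytidine library 2 was the shallowest, at 17890277 counts.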
